A study of Mus musculus with 24 samples.

Results

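The distribution of gH2AX along the genome was measured by chromatin immunoprecipitation and sequencing (ChIP-seq) in irradiated wild type (WT) primary mouse embryonic fibroblasts (MEFs). The comparison set 4 gH2AX libraries, 2 from female and 2 from male cells, against the 4 input libraries of the same sexes. These were 8 of the 24 libraries of the series, chosen by their labels for antibody and genotype. The cells were of strain C57BL6. Per the labels' protocols they received 5 Gy of X-rays and recovered for 30 minutes before crosslinking with 1% formaldehyde for 10 min, and input was 1% of the chromatin. The remaining 16 libraries held H2AX chromatin of the same WT cells and H2AX, gH2AX and input chromatin of cells without the deacetylase SIRT7 (KO), all with the same irradiation, and were used only where stated. No unirradiated library was analysed here, so the values describe where gH2AX lay after irradiation and not what irradiation changed. The labels do not say whether the 2 libraries of a sex came from separate cultures, so the p-values measure the spread between these libraries, which may be technical.

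H2AX is a variant of histone H2A that is built into a share of the nucleosomes throughout the genome. When both DNA strands break, the kinases ATM, DNA-PK and ATR phosphorylate a serine near its carboxyl end, and the phosphorylated form is called gH2AX. The mark spreads from the break over large chromosome domains, is bound by the adaptor MDC1 and helps to recruit repair proteins. The ratio of gH2AX to input in a bin depends both on how much H2AX the bin holds and on how much of it is phosphorylated, and H2AX over input is given beside most results for that reason.

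Reads had been counted by the submitters in 100 kb bins of the mouse genome. Totals were 88.0 M to 176 M reads (M, 1e6) for the gH2AX libraries and 110 M to 269 M for input, with a median of 3051 to 9353 reads per autosomal bin. Values were scaled to the autosomal reads of each library and are given as counts per 1e6 autosomal reads (CPM). The sex of each library matched its label by chromosome X, which held 5.83% to 5.93% of the reads on X and autosomes in the female and 3.27% to 3.35% in the male libraries. Replicates of a group differed by more than counting error (chi-square over its degrees of freedom, 2.65 to 3.20). Input replicates nevertheless agreed closely per bin, the SD of their log2 ratio being 0.040 in females and 0.049 in males, against 0.061 and 0.052 between gH2AX replicates.

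Promoters of genes at either end of the range are shown first, because bins are compared below by their number of genes and by the CG dinucleotides of their promoters. Each is the run of 250 bases before the annotated start (RefSeq, GRCm38.p6), read 5′ to 3′ on the gene's strand, with every CG in capitals. Cerk (ceramide kinase; chr15:86186142-86186391, minus strand), Gas8 (a part of the dynein regulatory complex of cilia; chr8:123518585-123518834, plus strand) and Dnmt3a (a de novo DNA methyltransferase; chr12:3806730-3806979, plus strand) were the promoters of the 3 highest bins among called bins of ordinary input (24.7 to 55.6 CPM) with exactly 1 protein-coding promoter and without overlap between gH2AX and input libraries. The 8 highest bins of the genome, one of which has the single promoter of Filip1l, were left out of this choice.
Cerk: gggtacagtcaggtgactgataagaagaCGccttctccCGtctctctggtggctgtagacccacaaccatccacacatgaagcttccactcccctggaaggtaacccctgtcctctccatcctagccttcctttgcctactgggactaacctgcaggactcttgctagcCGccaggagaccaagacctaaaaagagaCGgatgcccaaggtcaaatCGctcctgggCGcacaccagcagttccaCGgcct
Gas8: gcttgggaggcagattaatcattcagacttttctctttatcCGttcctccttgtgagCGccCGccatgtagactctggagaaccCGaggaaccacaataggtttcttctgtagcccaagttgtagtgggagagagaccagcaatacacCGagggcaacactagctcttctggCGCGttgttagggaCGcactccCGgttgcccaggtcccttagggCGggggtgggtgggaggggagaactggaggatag
Dnmt3a: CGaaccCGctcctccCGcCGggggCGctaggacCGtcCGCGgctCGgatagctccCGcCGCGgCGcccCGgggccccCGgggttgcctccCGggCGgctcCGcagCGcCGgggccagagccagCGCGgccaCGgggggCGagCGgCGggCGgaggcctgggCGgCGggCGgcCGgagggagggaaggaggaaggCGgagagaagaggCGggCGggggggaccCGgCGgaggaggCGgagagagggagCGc
Tyr (tyrosinase of pigment cells; chr7:87493513-87493762, minus strand), Sis (the intestinal sucrase-isomaltase; chr3:72967864-72968113, minus strand) and Cntnap2 (a neurexin-family protein of axons; chr6:45059811-45060060, plus strand) were those of the 3 lowest by the same choice.
Tyr: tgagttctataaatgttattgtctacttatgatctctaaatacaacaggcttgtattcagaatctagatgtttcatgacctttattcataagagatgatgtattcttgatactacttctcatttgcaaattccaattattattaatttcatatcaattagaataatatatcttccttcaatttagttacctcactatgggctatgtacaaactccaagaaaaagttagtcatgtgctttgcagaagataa
Sis: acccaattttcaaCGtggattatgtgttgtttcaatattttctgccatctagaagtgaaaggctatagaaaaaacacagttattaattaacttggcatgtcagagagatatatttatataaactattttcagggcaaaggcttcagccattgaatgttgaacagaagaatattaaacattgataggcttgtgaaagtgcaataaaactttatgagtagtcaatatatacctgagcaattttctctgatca
Cntnap2: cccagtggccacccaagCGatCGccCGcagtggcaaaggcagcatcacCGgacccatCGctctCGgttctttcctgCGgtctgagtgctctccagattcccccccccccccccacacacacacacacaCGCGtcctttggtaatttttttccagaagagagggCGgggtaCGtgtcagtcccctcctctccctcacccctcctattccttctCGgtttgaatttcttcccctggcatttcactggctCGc
The CG counts of these runs were 7 for Cerk, 10 for Gas8, 38 for Dnmt3a, 0 for Tyr, 1 for Sis and 13 for Cntnap2. Over 16457 promoters of the same length the median was 10, 93.0% held at least 1 and 15.8% held at most 1. The long non-coding RNA AY036118 (chr17:39898386-39898635, minus strand), which lies in the highest bin of the genome, is shown beside them and held no CG.
AY036118: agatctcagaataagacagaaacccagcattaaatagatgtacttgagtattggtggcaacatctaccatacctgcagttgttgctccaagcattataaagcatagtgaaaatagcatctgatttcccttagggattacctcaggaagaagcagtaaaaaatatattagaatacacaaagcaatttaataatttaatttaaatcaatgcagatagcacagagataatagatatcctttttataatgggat

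The ratio of gH2AX to input had a shallow relief over the autosomes that the libraries resolved well. No control for reads pulled down without the mark was used here, so the ratios are not levels of gH2AX itself. Of 24032 autosomal bins tested, 81.3% were called (edgeR quasi-likelihood test, adjusted p under 0.05), 9390 higher than input (39.1%) and 10158 lower (42.3%). The relief itself was small. The median size of a called difference was 0.17 on the log2 scale, and the 5th to 95th percentiles of all bins ran from -0.24 to 0.37. Past 1.2-fold there were 2888 higher bins (12%) and 647 lower bins (2.69%). This split depended on the scaling, since leaving out of the library size 6 bins in which input reads pile up shifted the median by -0.03 and gave 2273 higher and 1526 lower. In 34.5% of bins all 4 gH2AX libraries lay above all 4 input libraries, and in 36.5% all lay below.

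Only 8 autosomal bins exceeded a log2 ratio of 1, and each stood above its neighbours, whose medians ran from -0.16 to 0.37. The highest, 17:39800001-39900000 in the coordinates of mm10, contains the pseudogene Rn18s-rs5, named for its likeness to 18S ribosomal RNA, and AY036118, but no protein-coding gene. Its gH2AX level was 3697 and 3332 CPM in the female libraries and 2163 and 2059 CPM in the male libraries, and its input level was 291, 287, 267 and 257 CPM. The groups did not overlap and the log2 ratio was 3.31 ± 0.02 (SE), a fold of 9.90. H2AX was not raised there, at 264, 266, 221 and 225 CPM, and gH2AX exceeded H2AX by 3.49 on the log2 scale. The median log2 ratio of the 10 neighbouring bins was -0.16.

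The other 7 bins past that ratio showed the same order of libraries. 11:109000001-109100000, without a protein-coding gene, had gH2AX levels of 266, 246, 170 and 161 CPM (the female libraries first) over input levels of 50.4 to 52.4 CPM, a log2 ratio of 2.00 ± 0.02. 16:11100001-11200000 carries Zc3h7a, a zinc finger RNA-binding protein, and Txndc11, a thioredoxin-domain protein, and had 192, 175, 124 and 117 CPM over input levels of 45.8 to 47.5 CPM. Its log2 ratio was 1.67. 16:57300001-57400000 lies inside Cmss1 and includes part of Filip1l, and reached 198, 183, 131 and 125 CPM over 49.3 to 51.4 CPM, a log2 ratio of 1.63. The female libraries were above the male libraries in every one of these bins.

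3:5800001-5900000 holds no annotated protein-coding gene and had a log2 ratio of 1.61. 5:146200001-146300000 carries Cdk8, the kinase of the Mediator complex, and Rnf6, a ubiquitin ligase, and had 1.48. 9:123400001-123500000 carries Lars2, the mitochondrial leucyl-tRNA synthetase, and Limd1, and had 1.2, while 16:17200001-17300000 with Hic2, a transcriptional repressor, and Pi4ka, a lipid kinase, had 1.17. Together the 8 bins took 0.496% and 0.452% of the autosomal gH2AX reads in females and 0.3% and 0.286% in males, against 0.0611% ± 0.00197 (SD, n = 4) of input. Copies of a repeated sequence share reads, and how reads with several alignments were placed is not given in the sources used here, so a level in such a bin may belong to copies elsewhere.

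**Figure D1:**
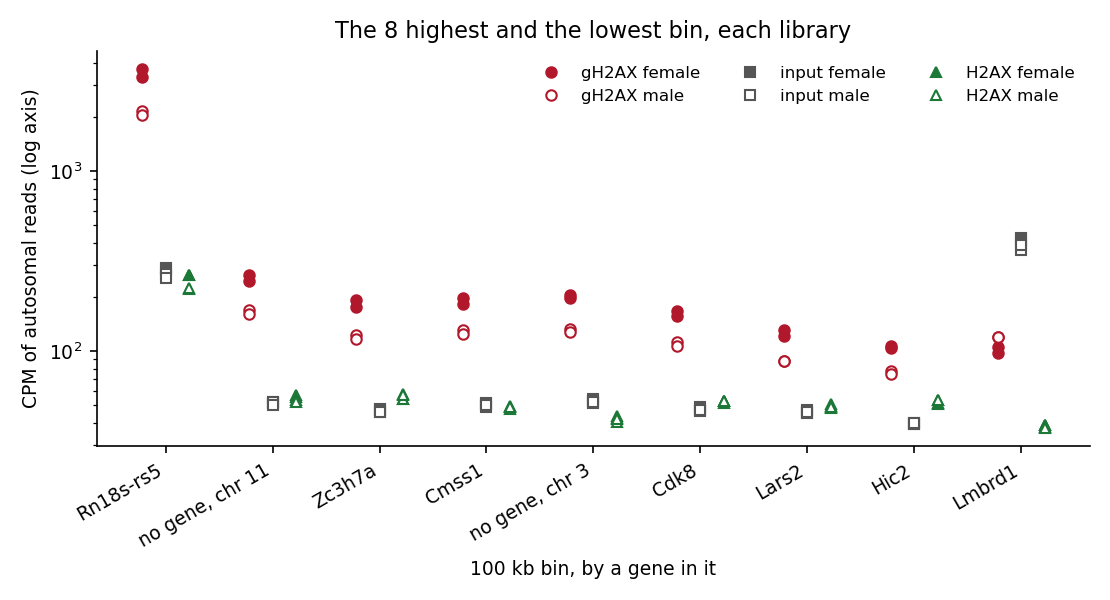
Level in CPM of autosomal reads (log axis) in each WT library for the 8 highest bins of gH2AX over input and for the lowest one, which holds Lmbrd1. In the 8 highest bins the female gH2AX libraries (filled red circles) lie above the male ones (open red circles) and both lie above input (grey squares), whereas H2AX (green triangles) lies nearer to input; in the lowest bin input is highest and H2AX lowest.

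The lowest bin was 1:24600001-24700000, which holds the end of Lmbrd1, a lysosomal cobalamin transporter, and the pseudogenes Gm10222 and Gm10925. Its input level was 424, 422, 366 and 387 CPM, 10.8 times the median bin on average, whereas gH2AX was 106 and 98.2 CPM in females and 120 and 119 CPM in males. The log2 ratio was -1.85 ± 0.02. H2AX was lower still, at 37.4 to 39.1 CPM, so that gH2AX was above H2AX by 1.53 on the log2 scale. This stretch of chromosome 1 is known for a copy of mitochondrial DNA.

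In the remaining low bins gH2AX and H2AX lay together below input. 6:103600001-103700000, at the cell adhesion gene Chl1, had gH2AX levels of 1041, 1082, 1115 and 1159 CPM over input levels of 1566 to 1650 CPM, a log2 ratio of -0.54, and did not differ detectably from H2AX (0.02, edgeR adjusted p = 0.217). 9:2900001-3000000, without a protein-coding gene, had -0.43, with H2AX at -0.32 relative to input. 10:103000001-103100000 at Lrriq1 and Alx1 had -0.42, and the next bin, inside Lrriq1, had -0.40. 5:83200001-83300000 at Tecrl and 1:68300001-68400000 inside Erbb4, a neuregulin receptor, both had -0.39. 15:48300001-48400000 inside Csmd3, a very long gene expressed in brain, had -0.38, with gH2AX at 28, 26.8, 28.5 and 30.0 CPM and input at 35.9 to 37.7 CPM.

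Bins in which input reads pile up were depleted of gH2AX. There were 6 bins with over 0.1% of the autosomal input reads each, near 98.6 Mb of chromosome 2 (6.60% of input reads), 3.0 and 35.3 Mb of chromosome 9 (1.37% and 0.939%), 19.4 Mb of chromosome 14 (1.35%), 3.1 Mb of chromosome 12 (0.187%) and at Chl1 (0.160%). All 6 were lower in gH2AX, with log2 ratios of -0.54 to -0.24. Together they took 8.21% and 8.25% of gH2AX reads in females and 8.67% and 8.87% in males, against 10.5% to 10.8% of input. H2AX was lower again, at a mean of 7.74%.

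Single bins that rose above their surroundings were sought by subtracting from each bin the median of the 5 bins on either side, a measure chosen after the data had been seen. Over 23994 bins the 5th and 95th percentiles of this local excess were -0.13 and 0.18, and 206 bins (0.859%) lay more than 0.3 above their neighbours while 76 (0.317%) lay as far below. Beyond the 8 bins above, single bins at 5 genes or gene pairs are given, picked from the top of that list. Epm2a (laforin, the glycogen phosphatase), 10:11400001-11500000, had gH2AX levels of 68.8, 63.4, 52.0 and 54.1 CPM over 37.2 to 38.5 CPM of input, a log2 ratio of 0.64 against -0.11 around it. A bin inside Cntnap5b, 1:100100001-100200000, had 66.4, 60.9, 49.5 and 47.8 CPM over 36.1 to 36.6 CPM, a ratio of 0.61 against -0.10. The bin of Gphn (gephyrin, the scaffold of inhibitory synapses) had 0.59 against -0.09, that of Jarid2 (a cofactor of Polycomb complex PRC2) 0.74 against 0.09, and that of the myosin light chain genes Myl12a and Myl12b 0.64 against 0.08. H2AX was near input in these 5 bins (log2 ratios of -0.22 to 0.20), and gH2AX exceeded H2AX by 0.45 to 0.84. The female ratios were above the male ones by 0.33 to 0.37 in all 5.

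H2AX near input was not general in that list, and at other isolated bins H2AX was higher than gH2AX. The bin shared by Sytl2 and the end of Dlg2 on chromosome 7 had gH2AX levels of 143, 152, 133 and 143 CPM over input levels of 69.2 to 88.4 CPM, a log2 ratio of 0.83. H2AX was 1.56 above input there, so gH2AX was 0.70 lower than H2AX. The bins 14:45800001-45900000, of Srgap1, of Sparcl1 and of Rbm19 were alike. H2AX over input was 1.36, 1.28, 1.07 and 0.96 in them, and gH2AX relative to H2AX was -0.62, -0.61, -0.48 and -0.28. A female excess was not general in the list of isolated bins. The female ratio minus the male one was -0.15 at Sytl2 and Dlg2, and -0.09, -0.08, -0.03 and 0.11 in the bins just given. The bin of the small non-coding Y RNA genes Rny1 and Rny3, 6:47700001-47800000, had 155, 149, 142 and 137 CPM over 96.0 to 98.7 CPM, a ratio of 0.58 against 0.07 around it, with H2AX at 0.17. Its neighbour with the small RNA gene Rn4.5s had 0.53, with H2AX at 0.11. In these 2 bins gH2AX exceeded H2AX, by 0.41 and 0.42.

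Gene-rich bins held more gH2AX than gene-poor bins, in steps that all 4 libraries shared. Bins were classed by the number of protein-coding genes whose midpoint they contain. Of 13358 bins without one, 20.7% were higher and 59.6% lower than input, with a median log2 ratio of -0.09. With 1 gene the median was 0.07 (5937 bins), with 2 genes 0.14 (2367 bins), with 3 to 4 genes 0.21 (1704 bins) and with 5 or more genes 0.33 (666 bins, 77.9% higher and 16.5% lower). In the last class the medians of the gH2AX libraries were 0.39 and 0.37 in females and 0.28 and 0.26 in males, and in the class without a gene -0.11, -0.10, -0.07 and -0.07. H2AX climbed the same steps, with median log2 ratios to input of -0.11, 0.10, 0.18, 0.24 and 0.35 from the class without a gene to that with 5 or more. Relative to H2AX, the median of gH2AX was 0.03 in bins without a gene and -0.03, -0.04, -0.05 and -0.04 in the classes with genes, so the climb was not one of gH2AX over H2AX.

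**Figure D2:**
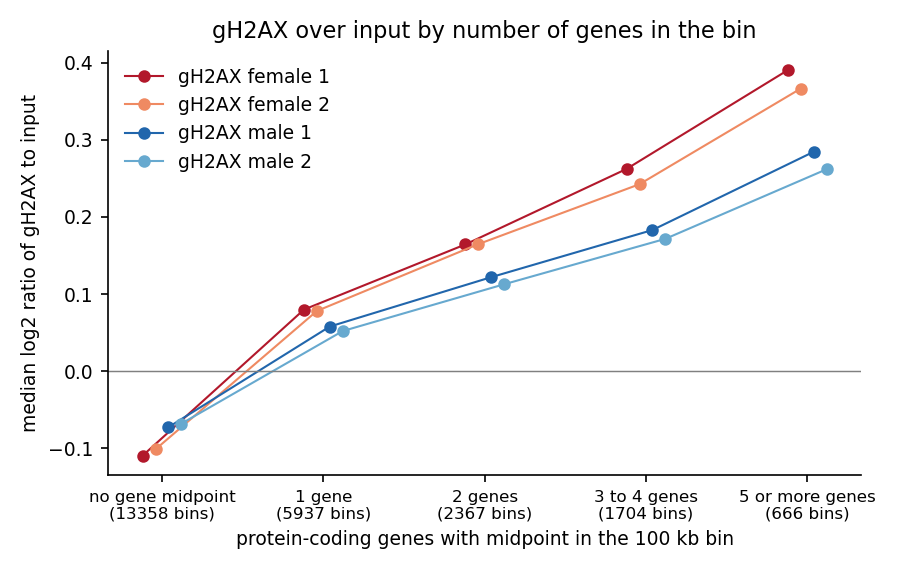
Median log2 ratio of each gH2AX library to the input mean of its sex, by the number of protein-coding gene midpoints in the 100 kb bin. All 4 lines climb from about -0.1 in bins without a gene to between 0.26 and 0.39 in bins with 5 or more, and the female lines are steeper than the male lines.

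The share of all autosomal reads moved in the same way. Bins with 5 or more genes took 2.93% ± 0.0899 (SD, n = 4) of gH2AX reads and 2.42% ± 0.0159 of input reads, a log2 difference of 0.27, and bins without a gene took 56.2% ± 0.607 and 59.9% ± 0.160, a difference of -0.09. In all 7 classes compared, the 4 gH2AX libraries lay on one side of the 4 input libraries (two-sided exact permutation test, p = 0.0286, the smallest value that this design allows, and 0.0286 after adjustment over the 7 classes). The last 3 Mb of the chromosomes took 2.2% of gH2AX and 2.09% of input reads. The first 5 Mb took 5.27% and 5.36%, a difference that turned to 0.02 in favour of gH2AX when only bins of ordinary input were kept.

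Clusters of sensory receptor genes went against this order. Among bins with 5 or more genes, 106 held olfactory or vomeronasal receptor genes, and of these 11 were higher and 78 lower, with a median of -0.17 (H2AX over input -0.10). Of the other 560 bins, 508 were higher and 32 lower, with a median of 0.36 (H2AX 0.39). Among bins without a gene midpoint, those with no base in a protein-coding gene had a median of -0.13 (8411 bins, 993 higher and 5939 lower), and those lying wholly inside a gene had -0.06 (2101 bins, 537 higher and 1105 lower). The number of gene midpoints correlated with the ratio at Pearson r = 0.47 and Spearman rho = 0.50 across 23573 bins of ordinary input, which share libraries and neighbours and are not independent.

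gH2AX and H2AX both followed the CG content of promoters. Promoters of 16457 of 20560 protein-coding genes were found in RefSeq, each of 300 bases of which 250 precede the start. To limit differences in gene number, 4737 bins with exactly 1 such promoter were compared. Such bins may still hold genes that start elsewhere or whose promoter was not found, so gene number was not held constant. With 0 to 2 CG dinucleotides (CG reads the same on both strands), 22.1% of 689 bins were higher and 55.2% lower than input, with a median log2 ratio of -0.07. With 21 or more, 68.9% of 1909 bins were higher and 11.9% lower, with a median of 0.13. The classes between rose in order, with medians of 0.02, 0.06 and 0.10. Over the same 5 classes the median of H2AX over input was 0.0098, 0.06, 0.07, 0.11 and 0.13, equal to that of gH2AX in the last class. The bins of the 6 promoters printed above spanned the range from 0.76 for Cerk, 0.70 for Gas8 and 0.69 for Dnmt3a to -0.33 for Cntnap2, -0.34 for Sis and -0.35 for Tyr. The promoter of Cntnap2 holds more CG than those of Cerk and Gas8, so single bins departed from the order of the classes. The base composition of whole bins was not analysed here, and its part in this result was not tested.

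**Figure D3:**
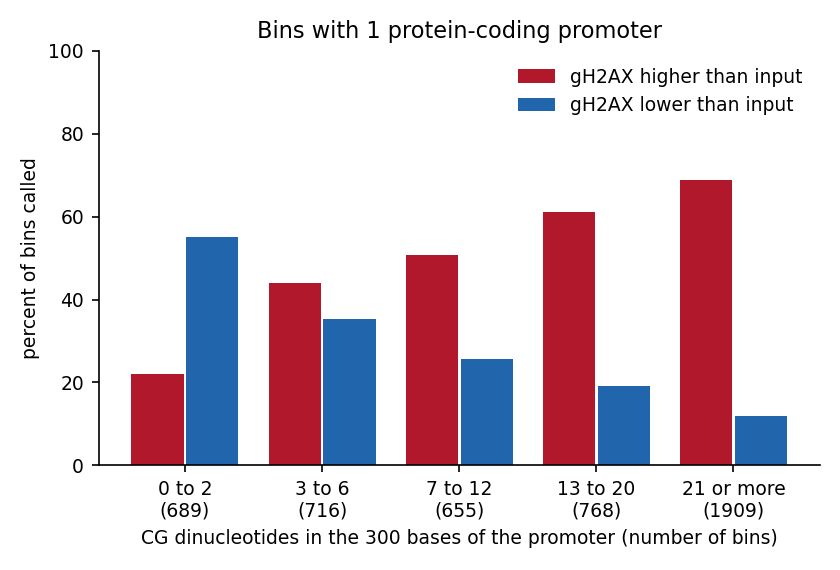
Percent of bins with exactly 1 protein-coding promoter in which gH2AX was called higher (red) or lower (blue) than input, by the number of CG dinucleotides in the 300 bases of the promoter. The higher calls grow from 22.1% to 68.9% and the lower calls shrink from 55.2% to 11.9%.

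Neighbouring bins had similar ratios. The log2 ratios of bins of ordinary input correlated at r = 0.84 with the adjacent bin, 0.62 at 0.5 Mb, 0.48 at 1 Mb, 0.35 at 2 Mb and 0.10 at 10 Mb. Of the called higher bins, 55.0% lay in unbroken runs of 10 or more, the longest of 15.7 Mb, and of the called lower bins 68.8%, the longest of 11.4 Mb. Most runs were short, however, with a median of 3 bins for higher and 2 for lower runs. Past 1.2-fold the medians were 2 and 1 bins, and 16.7% of higher and 0% of lower bins lay in runs of 10 or more. Past 1.2-fold the longest higher run was 2:30000001-33300000, of 33 bins and 81 protein-coding genes, with a median log2 ratio of 0.40. Its mean level per bin was 50.5, 50.0, 46.8 and 46.1 CPM of gH2AX over 36.5 to 37.0 CPM of input, and H2AX was 0.48 above input. Among the 5 longest higher runs that with the most genes, 10:79500001-81700000, held 127 in 22 bins, among them Dot1l, the histone H3 lysine methyltransferase, and had a median of 0.56. Its levels were 54.4, 52.9, 49.1 and 48.4 CPM over 34.8 to 35.7 CPM, and H2AX was at 0.61.

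Past 1.2-fold, runs below input were short, and none of the 5 longest overlapped more than 1 protein-coding gene. The longest were 6 bins inside Csmd3, 15:48100001-48700000, with a median of -0.32, and 6 bins at Mgat4c, a glycosyltransferase, 10:101800001-102400000, with -0.31. H2AX was at -0.43 in both, and no lower run past 1.2-fold exceeded 0.6 Mb.

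Chromosomes with more genes per Mb tended to have higher medians, though not in strict order. Chromosome 11 had the highest median log2 ratio (0.09), followed by 17 (0.04) and 7 (0.03), and chromosome 3 the lowest (-0.08), followed by 16 and 1 (both -0.05). Across the 19 autosomes the median correlated with genes per Mb at r = 0.79 and rho = 0.73, given as a description because all chromosomes come from the same libraries. Chromosome 7 had the most genes per Mb (14.2) but only the next highest median after 11 and 17, and chromosome 12 the fewest (5.79) with a median of -0.01.

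Genes of the DNA damage response lay in bins that were mostly above input, as gene-bearing bins were in general. Of 26 bins that hold the 16 break-sensing genes found, 22 were higher and none lower, with a median of 0.17, beside 39.1% higher and 42.3% lower over all bins and a median of 0.14 for bins with 2 genes. Highest was the bin of Kat5, the acetyltransferase TIP60 that activates ATM, with gH2AX levels of 51.7, 50.4, 47.3 and 43.5 CPM over input levels of 33.8 to 36.6 CPM and a log2 ratio of 0.46 ± 0.02. Rnf8, the ubiquitin ligase that binds MDC1, had 0.40. H2ax itself had 0.39, with 49.8, 47.1, 46.4 and 45.2 CPM over 35.3 to 36.5 CPM, and Mdc1 had 0.38. Rad50 and Mre11a of the MRN complex had 0.31 and 0.23, and Chek2, a checkpoint kinase, had 0.26.

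The lower part of that list reached the input level. Trp53bp1, which encodes 53BP1, and Abraxas1 both had 0.18, Uimc1 0.17, Rnf168 0.16, the phosphatase gene Ppm1d 0.15 and Herc2 0.12. Nbn, the third MRN member, had 0.08 with overlapping libraries. The bins of the 2 kinases Atm (0.03, edgeR adjusted p = 0.3) and Prkdc (0.02, adjusted p = 0.343) did not pass the test. In the Prkdc bin the gH2AX libraries ranged from 38.1 to 39.2 CPM and input from 37.7 to 38.9 CPM.

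End-joining genes had 26 higher and 3 lower of 34 bins (median 0.18). A named gene is given by 1 bin that it lies in, and other bins of a list may lie beyond the genes named. The end-joining genes ran from Xrcc1, the scaffold of single-strand break repair, at 0.68, and Paxx at 0.60 to Xrcc4, the partner of DNA ligase IV, at -0.11. Homologous recombination genes had 33 higher and 5 lower of 50 bins (median 0.15), led by Slx4, a nuclease scaffold, at 0.67 and Atrip at 0.51, with Rad51b at -0.09 and Rad52 at -0.11 at the other end. Targets of p53 had 30 higher and 1 lower of 36 bins (median 0.20), with Bax, a pro-apoptotic gene, at 0.48, and Plk2, the single lower one, at -0.06. In order, the shares of these lists were 76.5% higher and 8.8% lower, 66% and 10%, and 83.3% and 2.8%. Their bins held means of 2.65, 2.3 and 2.19 gene midpoints. Of bins with 2 genes 68.9% were higher and 15.3% lower, and of all bins 39.1% and 42.3%. Homologous recombination bins were thus no more often higher than bins with 2 genes.

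Lists of broadly expressed genes stood highest. All 24 bins of housekeeping genes were higher than input, with a median of 0.36, and the bin of Hspa8 (a chaperone) stood at 0.16. Immediate-early genes, which respond to stimuli within minutes, had 24 higher and 1 lower of 25 bins (median 0.31), with Nr4a1 and Jund both at 0.50 and Klf6 alone below input at -0.11. Cytosolic ribosomal protein genes had 72 higher and 3 lower of 79 bins (median 0.30), led by Rpl22 at 0.64 and Rplp0 at 0.59. These bins were also gene-rich, with a mean of 4.58 gene midpoints for the housekeeping and 3.44 for the immediate-early list. Of all bins with 3 to 4 genes 75.6% were higher, and of those with 5 or more 77.9%.

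Markers of blood cells and of fibroblasts both lay above the middle of the genome. Marker genes of blood cells, a lineage that fibroblast cultures should lack, had 19 higher and 6 lower of 26 bins with a median of 0.24, with the T cell receptor partner Cd4 at 0.48 and the globin gene Hba-a1 at 0.44. Fibroblast and matrix genes had 32 higher and 10 lower of 44 bins with a median of 0.21. Thbs1 (thrombospondin) at 0.58 and Fbln2 (fibulin) at 0.46 led them, and the collagen gene Col3a1 at -0.16 and the matrix proteoglycan gene Dcn at -0.21 closed them. The blood list had 73.1% of bins higher, with a mean of 4.04 gene midpoints, beside 75.6% of all bins with 3 to 4 genes. The fibroblast list had 72.7% higher, with a mean of 1.43, beside 53.7% of bins with 1 gene and 68.9% with 2. ChIP-seq of chromatin gives no RNA level, so neither list could check the cell type of the cultures.

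Receptor gene families of sensory neurons stood lowest, together with very long neuronal genes. Olfactory receptor genes had 38 higher and 265 lower of 339 bins (median -0.15), and vomeronasal receptor genes, which detect pheromones, had 7 higher and 163 lower of 216 (median -0.12). Long neuronal adhesion genes had 24 higher and 252 lower of 313 bins (median -0.15), with a bin of Csmd3 at -0.38 and of Cntnap2 at -0.31, and Kirrel3 at 0.17. Genes of common fragile sites, large genes in which chromosomes break under replication stress, had 50 higher and 206 lower of 344 bins (median -0.09). The highest bin of that list was the one at Dlg2 and Sytl2 described above (0.83). A bin of Wwox had 0.29 and one of Auts2 0.20, whereas one of Lrp1b had -0.30. Each was the first bin by position that lies wholly inside the gene, and these genes span many bins. The long neuronal and the fragile site lists share Cntnap2. Of the fragile site bins 14.5% were higher and 59.9% lower, beside 20.7% and 59.6% of all bins without a gene midpoint.

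Intermediate levels were found for the zinc finger genes named Zfp, with 223 higher and 63 lower of 343 bins (median 0.13), the Hox clusters of developmental regulators, with 6 higher and 1 lower of 9 (median 0.06), the replication-dependent histone genes, with 4 higher and 0 lower of 8 (median 0.06), and the keratin clusters, with 15 higher and 11 lower of 32 (median 0.04). None of these 4 medians exceeded that of bins with 2 genes. Of the Zfp bins 65.0% were higher and 18.4% lower, near the 68.9% and 15.3% of bins with 2 genes. All 17 lists kept the sign of their median under each of the 3 scalings tried.

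**Figure D4:**
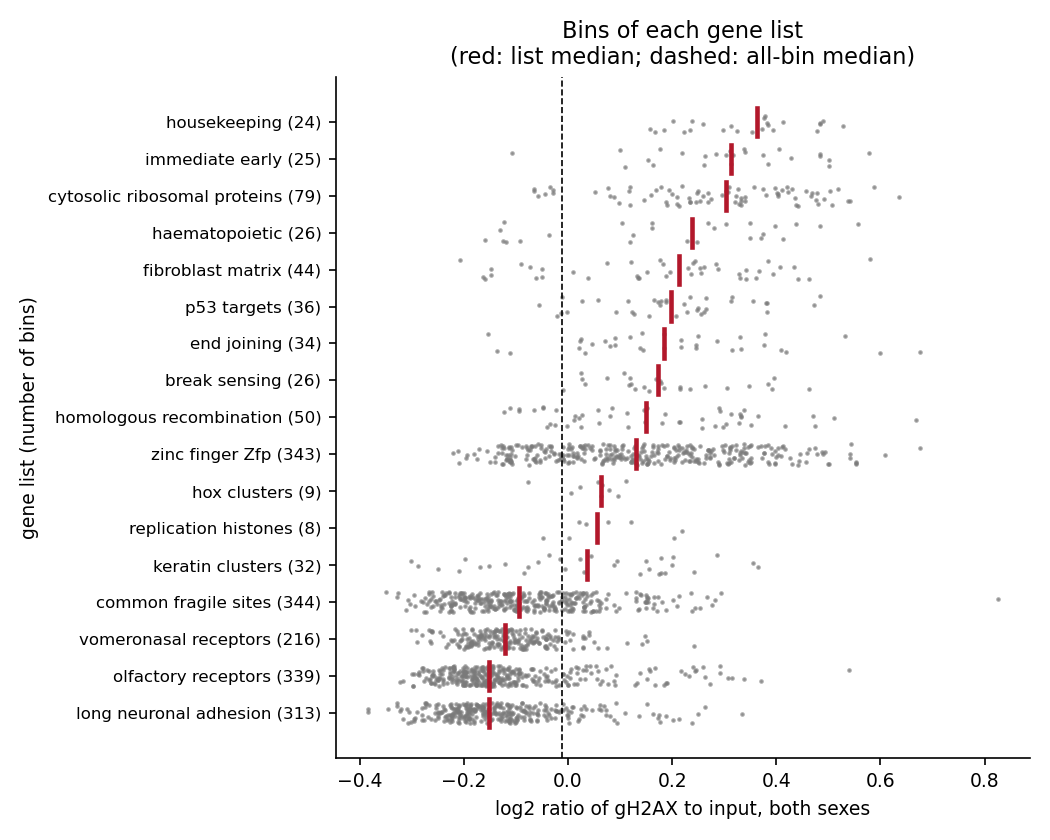
Log2 ratio of gH2AX to input of every 100 kb bin that belongs to each of 17 gene lists (grey points), with the list median in red and the median of all autosomal bins as a dashed line. Medians run from 0.36 for housekeeping genes to -0.15 for long neuronal adhesion and olfactory receptor genes, and the bins of most lists spread widely.

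Direct comparison with the WT H2AX libraries gave the bins in which the reads of the gH2AX and H2AX pull-downs differed. The pull-downs used different antibodies and no control for unspecific reads, so a difference need not be one of phosphorylation. Whether it was one was not tested. Of all bins 66% differed, 7684 higher in gH2AX (32%) and 8187 lower (34.1%), but 5.09% did so past 1.2-fold, 385 higher (1.6%) and 838 lower (3.49%). Replication-dependent histone genes had 7 of 8 bins higher than H2AX and none lower. At H4c8 gH2AX was at 38.3, 38.4, 39.6 and 39.0 CPM, close to the input levels of 39.8 to 40.7 CPM, and above H2AX by 0.34. Thbs1 showed the largest departure among the fibroblast genes. Its bin had gH2AX levels of 62.5, 60.6, 56.4 and 57.8 CPM over input levels of 38.2 to 40.6 CPM, whereas H2AX was -0.08 relative to input, so gH2AX exceeded H2AX by 0.66 (edgeR adjusted p = 7.52e-83). Klf6, an immediate-early gene, exceeded H2AX by 0.34 although it lay below input.

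Across the fibroblast list 22 of 44 bins were higher in gH2AX than in H2AX and 10 were lower. Fn1 (fibronectin) and Vim (vimentin) were both higher by 0.25, Tgfbi by 0.22, the smooth muscle actin gene Acta2 by 0.21 and Dcn by 0.20, whereas Col5a1 (-0.26) and Fbln2 (-0.16) were lower. Long neuronal genes (164 higher and 44 lower of 313) and fragile site genes (153 higher and 77 lower of 344) were more often above H2AX than below it. Below H2AX lay most bins of Zfp genes (57 higher and 188 lower of 343), olfactory receptors (24 and 192 of 339), vomeronasal receptors (3 and 145 of 216) and keratins (3 and 17 of 32). Kat5 (-0.21) and Rnf8 (-0.18), high over input, were lower than H2AX, and Crocc and its neighbours on chromosome 4, the highest bin of ordinary input after those named above (0.76), did not differ detectably from it (0.04, adjusted p = 0.151).

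Female and male cells showed the same pattern with a steeper relief in females. In females 77.4% of bins were called, 9062 higher (37.7%) and 9534 lower (39.7%), and in males 65.2%, 7722 higher (32.1%) and 7955 lower (33.1%). Of 14852 bins called in both sexes, 14849 had the same direction. Across 23573 bins of ordinary input the female and the male ratios, which share no library, correlated at r = 0.96 and rho = 0.95, and the least-squares slope of male on female ratios was 0.67. The SD of the log2 ratio over bins was 0.238 and 0.224 in the female gH2AX libraries and 0.166 and 0.158 in the male ones, so the sexes did not overlap, although an exact test of 2 against 2 cannot go below p = 0.333. The order was the opposite in KO cells, at 0.192 and 0.180 in females and 0.252 and 0.243 in males. Sex and culture cannot be told apart in this design.

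**Figure D5:**
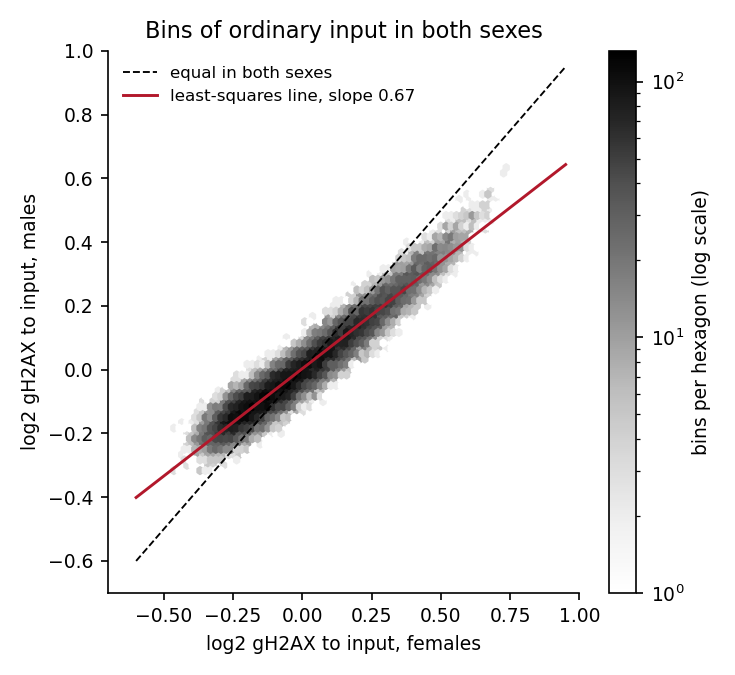
Log2 ratio of gH2AX to input in females (x axis) and males (y axis) for bins of ordinary input, shaded by the number of bins per hexagon. The cloud follows a line of slope 0.67 (red) that is flatter than equality (dashed).

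The test of the difference between the sexes called 2124 bins (8.84%), 1382 higher in females (5.75%) and 742 lower (3.09%), with a median size of 0.17. Scaled without the 6 bins of piled-up input reads, 1037 were higher and 1162 lower in females. In 99.4% of them the female ratio was farther from 0, as it was in 81.4% of all bins. The 8 highest bins named above were all higher in females, by 0.48 to 0.61. At 17:39800001-39900000 the difference was 0.59, at 11:109000001-109100000 it was 0.61, and at the bin of Lmbrd1 it was -0.40. Among bins of ordinary level, the largest deficits in females were at 7:60900001-61000000 (-0.31), in Brinp3 (-0.29) and in Epha5, an ephrin receptor (-0.27), all of them below input in both sexes. The count was unstable: with DESeq2 1008 bins were called, 989 of them higher in females. With 1 library left out it was 1084 (gH2AX female 1), 714 (gH2AX male 2), 865 (input female 1), 541 (input female 2), 694 (input male 1) or 1258 (input male 2). After removal of each library's trend on the ratio of H2AX to input, an alternative chosen after the data had been seen, 108 bins were left, 85 of them among the 2124.

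Averaged over the sexes, few bins differed between WT and KO cells. Of 24033 bins, 13 (0.0541%) differed between WT and KO in the mean of the sexes, 5 higher (0.0208%) and 8 lower (0.0333%) in WT. None passed 1.2-fold, while 2559 had an unadjusted p under 0.05 (edgeR). The relief was steeper in WT than in KO females (SD 0.238 and 0.224 against 0.192 and 0.180). In males it was flatter in WT (0.166 and 0.158 against 0.252 and 0.243). Opposite shifts in the sexes cancel in such a mean. Single bins were not tested between WT and KO within a sex, so the count does not show that the genotypes were alike. Among the 13 were 4 of the bins described above. The bins of Rn18s-rs5 (-0.13), Sytl2 and Dlg2 (-0.13) and Rny1 (-0.12) were lower in WT, and that of Thbs1 (0.16) was higher. The smallest p was at Ly6c1 (-0.19, edgeR adjusted p = 8.01e-09). The largest differences were at 7:5900001-6000000 (0.20) and 6:74100001-74200000 (0.19) without a protein-coding gene, while Col5a2 (0.18) was another matrix gene higher in WT. The count moved with single libraries. It was 27 and 20 without WT female gH2AX library 1 or 2, 3 without WT male gH2AX library 2 and 2 without WT female input library 1. Among KO libraries it was 7 and 21 without female gH2AX library 1 or 2, 4 without male gH2AX library 1, and 3 and 23 without female input library 1 or 2.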

How the data were processed

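The authors deposited 1 table of raw read counts in 27268 bins of 100 kb. Per the submitters' processing notes, build mm10 was used and the tools named are Bowtie2 2.2.9, Trimmomatic 0.36, FastQC 0.11.3, MACS2 2.2.7.1, SAMtools 0.1.19 and deepTools 2.4.2. The handling of duplicates and of reads with several alignments is not given in the sources used here. Another 24 columns matched no labelled sample and were not used. Groups came from the labels.

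The 8 WT libraries were fitted with edgeR 4.0.16 (R 4.3.3) with a mean per antibody or input and sex. Library sizes were autosomal sums without further factors, filterByExpr kept 24032 of 24639 autosomal bins, and quasi-likelihood F tests were adjusted over all of them (Benjamini-Hochberg). The ratio for both sexes is the mean of the female and male log2 ratios. SE was taken as the log2 ratio over the root of F. Bins had a median biological coefficient of variation of 1.94%. Comparisons with H2AX and KO used fits that include those libraries. On simulated counts of the comparison of gH2AX with input in both sexes (24032 bins), 36% of bins changed 1.05-fold were called. Of those changed 1.1-fold or more 100% were called, with 8.70% false calls, above the 5% aimed at. Only 50 bins were changed at each fold, whereas 81.3% of bins were called in the data, so these shares do not carry over to the data.

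Bins of ordinary input had a mean input CPM within 24.7 to 55.6. The named bins were the 8 highest and 8 lowest called bins whose libraries do not overlap, also among bins of ordinary input. To these were added the 5 bins per direction with the largest sex difference. The 5 longest runs past 1.2-fold per direction and, in each list, the genes with the highest and lowest bins were also taken. Not every member of these sets is described in the text. Other genes and the promoter and local excess comparisons were chosen after their values were seen. Promoters on chromosome 18 were left out of those printed. A single gene's value is that of a bin it lies in, and is not specific to it. Gene positions are RefSeq's (GRCm38.p6, the assembly of mm10). Members and lists were chosen with earlier results of these data known. Alternatives were other scalings, DESeq2 1.42.0, other filters, a replicate block and leaving out each library.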

Additional observations from a re-analysis of the deposited data

Results flagged for a closer look

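In 10 bins the ratio of gH2AX to input differed between the sexes by the edgeR test of the difference itself, these being the 5 largest in each direction. Higher in females (log2 difference) were 11:109000001-109100000 (0.61), the bin of Zc3h7a and Txndc11 (0.60), 17:39800001-39900000 with Rn18s-rs5 (0.59), 3:5800001-5900000 (0.59) and the bin of Cmss1 and Filip1l (0.53). These 5 were higher than input in both sexes. Lower in females were the bin of Lmbrd1 (-0.40), 7:60900001-61000000 (-0.31), the bins of Brinp3 (-0.29) and Epha5 (-0.27), and 3:112800001-112900000 (-0.27). After each library's trend on the ratio of H2AX to input was removed, the 5 bins higher in females differed by 0.54 to 0.67. The bin of Lmbrd1 then differed by -0.000183. Its H2AX over input (-3.38) lay far below that of the other bins listed here, so the trend there may follow this bin itself. The value for Lmbrd1 therefore cannot tell whether its sex difference goes with H2AX. The other 4 bins lower in females kept that direction, at -0.25 (7:60900001-61000000, edgeR adjusted p = 0.0141), -0.20 (Brinp3, 0.0479), -0.19 (Epha5, 0.0516) and -0.20 (3:112800001-112900000, 0.0539).

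Outside the autosomes, chromosome Y took 0.0996% of the reads of the female gH2AX libraries (mean of 2), against 0.0988% and 0.100% in the libraries themselves and 0.0917% and 0.0911% in female input. The female KO libraries of gH2AX had 0.0902% and 0.0926%. In male gH2AX libraries the share was 1.57% and 1.58%.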

How the results depend on the processing

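In all 342 checks of the 23 named bins, the gH2AX to input ratio kept its direction and its side of the threshold. These bins had been chosen from the same libraries, most as extremes without overlap between gH2AX and input. The checks could therefore hardly fail and are no independent support. With autosomal library sizes that leave out bins over 0.1% of input reads, lower bins past 1.2-fold numbered 1526 in place of 647 and list medians fell to 0.14 (break sensing), 0.15 (end joining), 0.12 (homologous recombination), 0.16 (p53 targets), 0.023 (histones), 0.029 (Hox), 0.10 (Zfp), 0.0035 (keratins) and -0.13 (fragile sites). The count of bins that differ between the sexes was 1008 with DESeq2 and 108 with the trend on the H2AX to input ratio removed. With that trend removed the sex difference turned to 0.033 and 0.037 in the 2 bins of Lrriq1 and to -0.047 in that of Crocc. With 1 library left out, the bins that differ between the sexes numbered 541 to 2972, those that differ between WT and KO 2 to 27, the median of the break-sensing list was 0.16 to 0.17 and the log2 difference in read share of the first 5 Mb was -0.030 to -0.018. That difference was 0.023 with bins of ordinary input alone. The median of bins in the first 5 Mb, -0.0013, was 0.0011 with TMM factors, 0.000117 and 0.0010 without gH2AX female library 1 or male library 2, and -0.0042 at the lowest without male library 1. At 3:112800001-112900000 the difference from H2AX ranged from -0.023 to 0.028 with 1 library left out, at -0.00421, -0.014 and -0.0051 in the other reversals. The causes were not tested.

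Replicate numbers did not pair the libraries: deviations of gH2AX and input libraries with the same number correlated at 0.0237 in females and 0.0272 in males. With a replicate block 19553 bins were called in both sexes, 18660 in females, 15674 in males and 2592 between the sexes, 15892 against H2AX and 15 between WT and KO. The alternatives on GC content were not run, since no genome was used here. Of bins simulated with the lowest fold change 36% were called. Few bins were changed in that simulation, which made its adjusted threshold stricter than that of the data. The share therefore does not measure what these libraries could detect, and the part of depth was not varied.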
